A study of Mus musculus with 9 samples.

Results

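The genes described here are the mouse collagen chain genes, taken as every gene of the deposited expression table whose symbol is Col, a number, the letter a and a number (Col1a1, Col12a1 and so on). Of its 16428 genes, 33 matched, 30 of them with a mean of at least 10 normalized counts over the libraries and so entered in the tests, and 20 with a mean of at least 100. The study measured polyadenylated RNA in mouse embryonic fibroblasts (MEFs), which in every group carried the genotype CARM1f/f ER-Cre, a floxed Carm1 gene and a Cre that 4-OHT switches on through its estrogen receptor part. The 3 groups of 3 libraries were untreated cells (WT), cells given 4-OHT at 2 uM (KO), and cells given TP-064, an inhibitor of the arginine methyltransferase CARM1, at 1 uM (CARM1i), each over 6 days. WT was untreated, so an effect of the solvent or of 4-OHT itself cannot be told apart from loss or inhibition of CARM1. The sources used here do not name the promoter that drives ER-Cre or the number of embryos behind the cells. The libraries held 28657018 to 35842771 reads on genes, as recovered from the normalized counts.

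Collagens are secreted proteins whose chains wind around each other in a trimer, which requires the smallest amino acid, glycine, at a fixed spacing along the chain. Fibrillar collagens have a long unbroken helix and pack into the fibrils of skin, tendon and bone, network collagens form sheets such as the basement membrane, beaded filament collagen (collagen VI) surrounds cells with microfibrils, and FACIT collagens have an interrupted helix and lie on the surface of fibrils. Fibroblasts are the main source of fibrillar collagen in connective tissue.

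The glycine repeat that defines the family was read from the GENCODE M21 transcripts (mm10) as units of 9 bases, 3 codons, whose first codon is GGN. The exons shown were chosen because they span the classes and because the mRNAs they belong to changed by different amounts. Each is a coding exon of exactly 54 bases, 6 whole units, with the GG of each glycine codon in capitals.
Col1a1 exon 8, chr11:94939904-94939957, plus strand: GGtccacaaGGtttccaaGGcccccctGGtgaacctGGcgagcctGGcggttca
Col1a2 exon 8, chr6:4515481-4515534, plus strand: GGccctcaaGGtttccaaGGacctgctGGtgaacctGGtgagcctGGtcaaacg
Col3a1 exon 6, chr1:45325360-45325413, plus strand: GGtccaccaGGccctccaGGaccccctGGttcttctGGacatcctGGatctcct
Col4a1 exon 7, chr8:11245211-11245264, minus strand: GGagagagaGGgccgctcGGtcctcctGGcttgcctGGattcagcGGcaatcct
Col6a3 exon 16, chr1:90795915-90795968, minus strand: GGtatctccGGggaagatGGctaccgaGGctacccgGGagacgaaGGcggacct
Col12a1 exon 55, chr9:79614349-79614402, minus strand: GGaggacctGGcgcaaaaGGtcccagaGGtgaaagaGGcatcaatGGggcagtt
The classes differed in how long the repeat ran without a break, counting runs of at least 3 units. Among the 10 fibrillar genes the longest run was 216 to 344 units, with 338 in Col1a1, 339 in Col1a2 and 344 in Col3a1. In the 6 basement membrane genes it was 39 to 66 units, and the repeat was split into 23 to 27 runs. The 3 beaded filament genes had a longest run of 45 to 87 units. Among the 6 FACIT genes the longest run was 32 to 113 units, and all runs together made up 8.12% to 85.6% of the coding sequence. Col12a1 stood at the low end of both, at 32 units and 8.12%. Outside the fibrillar class these ranges of longest runs overlapped. Exons of 54 bases made of whole units numbered 21 to 32 in each fibrillar gene and 4 to 28 in each FACIT gene. They numbered 2 to 3 in each beaded filament gene and 1 to 3 in each basement membrane gene.

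Before the results, 1 library needs naming. CARM1i replicate 3 was the lowest of its group for 16 of the 20 collagens with a mean of at least 100, whereas 36.9% of all tested genes were lowest there. Its median level over those 20 collagens was 85.5% of the mean of the other CARM1i libraries, against 99.8% over all tested genes. CARM1i replicate 3 also differed most from its group beyond the collagens. The chi-square per gene of its recovered reads was 7.91 against replicate 1 (14498 genes) and 8.47 against replicate 2 (14562 genes). Replicates 1 and 2 gave 3.185 against each other, and pairs within WT or KO gave 2.47 to 5.54. Fold changes and medians of CARM1i against WT are therefore given with and without it. Carm1 itself read 1079, 1143 and 1091 normalized counts in WT, 794, 711 and 769.8 in KO and 1112, 1072 and 986 in CARM1i. It was lower in all KO libraries than in any WT library, with a log2 fold change of -0.54 ± 0.06 (SE; adjusted p = 5.49e-07), and in CARM1i it overlapped WT, -0.06 ± 0.06 (SE; adjusted p = 0.496, or -0.02 without CARM1i replicate 3). The labels do not place the deleted part of the gene, so a count over the whole gene measures that part only in its sum.

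**Figure D1:**
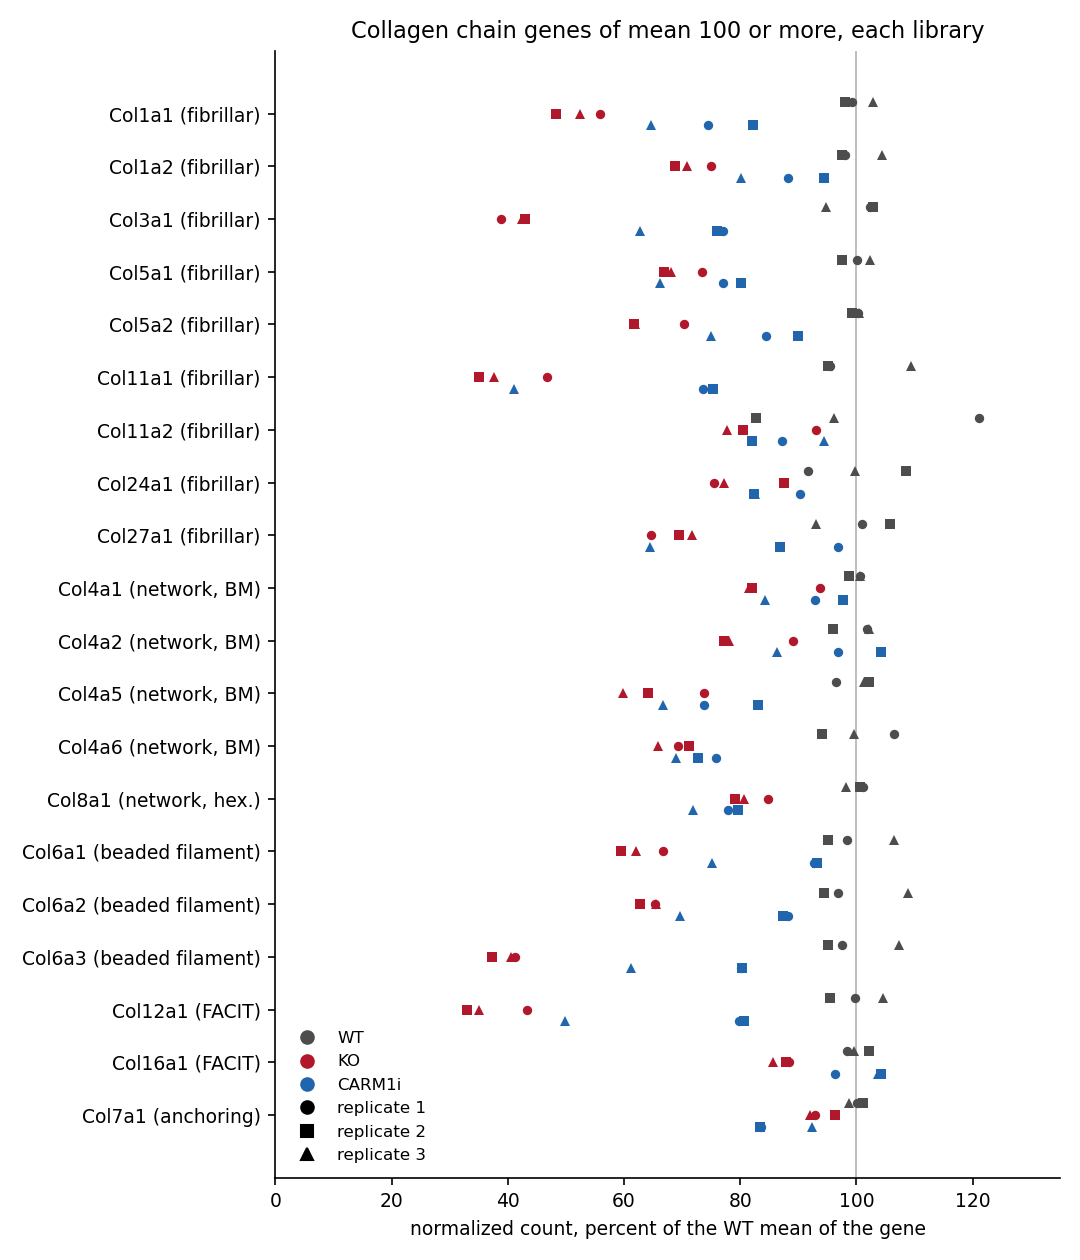
Normalized count of the 20 collagen chain genes with a mean of at least 100, as a percent of the gene's WT mean, with 1 point for each library (colour, group; shape, replicate number). The KO points lie left of the WT points for 19 of the 20 genes, and Col1a1, Col3a1, Col11a1, Col6a3 and Col12a1 are farthest left. All KO libraries lay below WT for 3282 of all 10934 genes with a mean of at least 100.

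In KO, 8 of 10 tested fibrillar, 6 of 8 network, 3 of 3 beaded filament and 2 of 4 FACIT genes fell. All values below are the authors' size-factor normalized read counts, and each fold change is on the log2(value + 1) scale, from limma with Benjamini-Hochberg adjustment over all 14560 genes tested. At an adjusted p under 0.05, 19 of the 30 tested collagens fell, where 20.5% of all tested genes fell, and 1 rose, where 21.4% of all tested genes rose. Their median log2 fold change was -0.51, against -0.00 over all tested genes. Of the 20 with a mean of at least 100, 18 fell and none rose, where 2741 of all 10934 genes of that mean fell and 2838 rose. For 20 of the 30, all 3 KO libraries lay below all 3 WT libraries, as for 25.9% of all tested genes, and for 1 they lay above, as for 26.7%. The share of all normalized counts on collagen chain genes was 1.01% to 1.06% in WT and 0.638% to 0.705% in KO. In bulk RNA, fewer cells that make collagen and less collagen RNA per cell cannot be told apart. Nothing in the labels says that replicates came from separate cultures, so the p-values measure only how these libraries vary, and that variation may be technical.

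In CARM1i, 14 of the 30 tested collagens fell and none rose, where 8.59% of all tested genes fell and 10.5% rose. At an unadjusted p under 0.05 there were still 0 higher collagens, and 16 were lower, where 4482 of all 14560 tested genes passed in either direction. The median log2 fold change was -0.26, or -0.21 without CARM1i replicate 3. The CARM1i libraries lay wholly below WT for 18 of the 30 tested collagens, as for 16.7% of all tested genes. They lay wholly above WT for 0 of the 30, also against 16.7%. Without CARM1i replicate 3, 13 fell, Col6a1 being the gene no longer called, where 8.08% of all tested genes fell and 10.3% rose. Collagen genes held 0.866%, 0.913% and 0.744% of all normalized counts in the CARM1i replicates, the last value being that of replicate 3. KO and CARM1i were compared with the same WT libraries, so the comparisons are not independent of each other. 

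The treated groups were also set directly against each other. There, 12 collagens were higher in CARM1i than in KO and 1 was lower, where 12.1% and 11.5% of all tested genes were. Without CARM1i replicate 3, 16 were higher, where 13.1% of all tested genes were, and 1 was lower, where 12.1% were. CARM1i lay wholly above KO for 10 of the 30 tested collagens and wholly below for 0, as for 18.3% and 18.6% of all tested genes. The 12 higher genes were Col1a1, Col1a2, Col3a1, Col5a2 and Col11a1 of the fibrillar class, Col4a2 and Col8a2 of the network classes, Col6a1, Col6a2 and Col6a3, and the FACIT genes Col12a1 and Col16a1. The lower gene was Col7a1, the anchoring fibril collagen. Col12a1 was higher by 0.89 ± 0.13 (SE; adjusted p = 5.33e-05), Col3a1 by 0.79 ± 0.06 (SE; adjusted p = 4.16e-08) and Col1a1 by 0.50 ± 0.06 (SE; adjusted p = 1.38e-05). Col11a1 was higher by 0.63 ± 0.16 (SE; adjusted p = 0.00861), a call that ended without KO replicate 2, CARM1i replicate 1 or CARM1i replicate 2 (adjusted p = 0.0556 to 0.0588). It also ended without the intensity trend of the fit (adjusted p = 0.115). So did the calls of Col4a2 (0.0992), Col6a2 (0.0586) and Col7a1 (0.137). Without CARM1i replicate 3 the Col11a1 difference was 0.91 (adjusted p = 8.69e-08). The 4 genes gained without CARM1i replicate 3 were Col5a1 (0.18), Col27a1 (0.42), Col4a1 (0.15) and Col4a5 (0.25, log2), and without KO replicate 1 Col4a1 (0.16) and Col4a5 (0.26) were called as well.

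**Figure D2:**
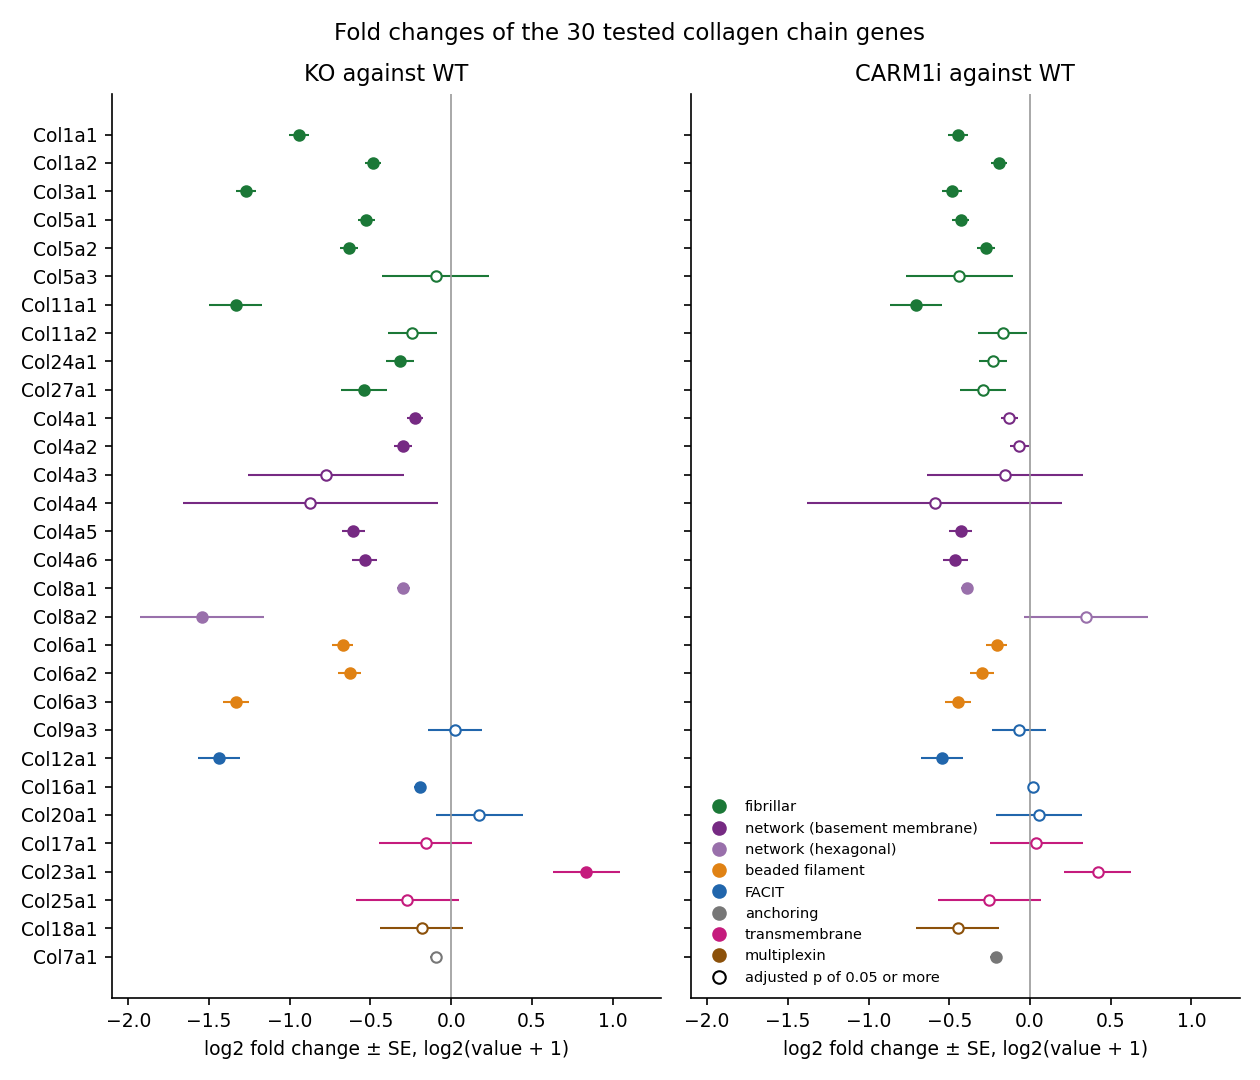
Log2 fold changes with their standard errors for the 30 tested collagen chain genes, KO against WT and CARM1i against WT, coloured by class (filled, adjusted p under 0.05; open, 0.05 or more). In KO 19 filled points lie left of 0 and 1, Col23a1, lies right of it; in CARM1i all 14 filled points lie left.

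Fibrillar collagens were the most abundant class. Of the 10 present, 8 fell in KO and 6 in CARM1i, with median log2 fold changes of -0.53 and -0.36, the latter -0.22 without CARM1i replicate 3. Of all tested genes, 20.5% fell in KO and 8.59% in CARM1i. Col1a1, at chr11:94936224-94953042 on the plus strand, encodes the chain that is present in a pair of copies in each trimer of type I collagen, the main protein of skin and bone. It read 22961, 22692 and 23812 in WT, 12919, 11176 and 12129.7 in KO and 17248, 19027 and 14977 in CARM1i. The groups did not overlap: KO was lowest, WT highest and CARM1i between them. Its means were 23155 ± 585 (SD, n = 3) in WT, 12075 ± 873 in KO and 17084 ± 2029.8 in CARM1i. On the log2 scale Col1a1 fell by 0.94 ± 0.06 (SE; adjusted p = 1.25e-09) in KO and by 0.45 ± 0.06 (SE; adjusted p = 6.15e-05, or -0.35 without CARM1i replicate 3) in CARM1i.

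Col1a2 (chr6:4504814-4541544, plus strand), the other chain of type I collagen, had the highest count of all collagens. Its values were 78110.1, 77736 and 83222 in WT, 59767, 54754 and 56389 in KO and 70352, 75211 and 63891 in CARM1i, again 3 groups without overlap. It fell by 0.48 ± 0.05 (SE; adjusted p = 2.72e-07) in KO and by 0.19 ± 0.05 (SE; adjusted p = 0.00916, or -0.13 without CARM1i replicate 3) in CARM1i, less than Col1a1 in both. Col3a1 (chr1:45311538-45349706, plus strand) encodes the homotrimer type III collagen, which forms mixed fibrils with type I in stretchable tissue. WT held 6105, 6145 and 5658, KO 2321, 2562 and 2532 and CARM1i 4599, 4540.2 and 3746. KO was thus at 41.4% of the WT mean and CARM1i at 72%, and no library of a group reached into another group. Col3a1 fell by 1.27 ± 0.06 (SE; adjusted p = 1.84e-11) in KO and by 0.48 ± 0.06 (SE; adjusted p = 2.38e-05, or -0.38 without CARM1i replicate 3) in CARM1i.

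Type V collagen starts fibrils and sets their diameter. Its chain gene Col5a1 (chr2:27886425-28039514, plus strand) had 14631, 14255 and 14962 in WT, 10734, 9784 and 9953 in KO and 11258, 11722 and 9679.9 in CARM1i. Both treated groups were below WT and overlapped each other: it fell by 0.53 ± 0.05 (SE; adjusted p = 2.73e-07) in KO and by 0.43 ± 0.05 (SE; adjusted p = 1.52e-05, or -0.35 without CARM1i replicate 3) in CARM1i. Its partner Col5a2 (chr1:45374321-45503282, minus strand) had 43863, 43358 and 43895 in WT, 30729, 26969 and 27073 in KO and 36936, 39289 and 32767 in CARM1i. Col5a2 fell by 0.63 ± 0.05 (SE; adjusted p = 3.56e-08) in KO and by 0.27 ± 0.05 (SE; adjusted p = 0.00169, or -0.20 without CARM1i replicate 3) in CARM1i, and its 3 groups did not overlap. Col5a2 and Col3a1 are neighbours on chromosome 1, with 24614 bases between their ends.

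Col11a1 (chr3:114030540-114220718, plus strand) encodes a chain of type XI collagen, best known from cartilage fibrils and also found in trimers with type V chains. WT libraries held 1091, 1086 and 1251, KO libraries 534, 401 and 429 and CARM1i libraries 841, 862 and 469. CARM1i replicate 3 lay within the KO range, while the other CARM1i libraries lay between KO and WT. It fell by 1.34 ± 0.16 (SE; adjusted p = 2.64e-06) in KO and by 0.71 ± 0.16 (SE; adjusted p = 0.00469) in CARM1i, or by 0.42 (adjusted p = 0.00203) without CARM1i replicate 3. The cartilage markers Acan, Comp, Matn1, Matn3, Hapln1 and Snorc, and the cartilage collagen gene Col2a1, were not among the genes of the table. Sox9, the only cartilage marker of the list that was present, rose in KO by 0.32 ± 0.09 (SE; adjusted p = 0.00603). In CARM1i Sox9 did not pass the test (adjusted p = 0.468).

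Col11a2 did not pass the test: WT read 158, 108 and 125, KO 121, 105 and 101 and CARM1i 113, 107 and 123, with overlap throughout and adjusted p = 0.22 and 0.493. Col24a1, a minor fibrillar chain, read 384, 455 and 418 in WT, 317, 367 and 323 in KO and 379, 345 and 346 in CARM1i. It fell by 0.32 ± 0.09 (SE; adjusted p = 0.00631) in KO, and in CARM1i its log2 fold change was -0.23 ± 0.09 (SE; adjusted p = 0.0751, or -0.21 without CARM1i replicate 3), although all 3 CARM1i libraries lay below WT. The CARM1i difference of Col24a1 passed without WT replicate 1 (-0.29, adjusted p = 0.04985). Col27a1, another minor fibrillar chain, read 177, 186 and 164 in WT, 113, 122 and 126 in KO and 170.1, 152 and 113 in CARM1i. It fell by 0.54 ± 0.14 (SE; adjusted p = 0.00502) in KO, and CARM1i overlapped WT, -0.29 ± 0.14 (SE; adjusted p = 0.176, or -0.12 without CARM1i replicate 3). Col5a3, with a mean under 100, passed neither test.

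Of beaded filament collagen, all 3 genes fell in both treated groups, where 20.5% (KO) and 8.59% (CARM1i) of all tested genes fell. The class had median log2 fold changes of -0.67 in KO and -0.30 in CARM1i. Without CARM1i replicate 3 the CARM1i median was -0.19, and 2 of the 3 fell. Col6a1, the first chain of the collagen VI monomer, read 11724, 11344 and 12686 in WT, 7958, 7093 and 7406 in KO and 11039, 11119.8 and 8965 in CARM1i. Col6a2, the second chain, read 2215, 2162 and 2491 in WT, 1496, 1436 and 1500.5 in KO and 2019, 2001 and 1593 in CARM1i. Col6a3, the longest chain, read 2411, 2349 and 2652 in WT, 1017, 920.4 and 1002 in KO and 1979, 1985 and 1513 in CARM1i. For each of the 3 genes KO was lowest and WT highest, without overlap.

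In KO, Col6a3 fell by 1.33 ± 0.08 (SE; adjusted p = 3.05e-10), about as far as Col11a1 and Col3a1, while Col6a1 fell by 0.67 ± 0.06 (SE; adjusted p = 1.54e-07) and Col6a2 by 0.63 ± 0.07 (SE; adjusted p = 1.37e-06). In CARM1i, Col6a3 fell by 0.45 ± 0.08 (SE; adjusted p = 0.000646, or -0.32 without CARM1i replicate 3) and Col6a2 by 0.30 ± 0.07 (SE; adjusted p = 0.00716), the latter by 0.19 (adjusted p = 0.016) without CARM1i replicate 3. Col6a1 fell by 0.21 ± 0.06 (SE; adjusted p = 0.0337) in CARM1i, a call that ended without CARM1i replicate 3 (-0.10, adjusted p = 0.113). It also ended without WT replicate 1 (adjusted p = 0.0659), WT replicate 3 (0.134) or KO replicate 3 (0.0524). All 3 genes were higher in CARM1i than in KO, Col6a3 by 0.89 ± 0.08 (SE; adjusted p = 2.45e-07). The Col6a2 call against KO ended without the intensity trend (adjusted p = 0.0586).

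Among FACIT collagens, 6 genes were present and 4 were tested. Of these 4, 2 fell in KO and 1 in CARM1i, where 20.5% and 8.59% of all tested genes fell. The 4 log2 fold changes in KO ran from -1.44 to 0.17, with a median of -0.09. Col12a1 (chr9:79598991-79718831, minus strand) encodes type XII collagen, which decorates type I fibrils and links them to other matrix. It read 50963, 48775 and 53428 in WT, 22102, 16809.6 and 17908 in KO and 40720.3, 41212 and 25449 in CARM1i. KO stood at 37.1% of the WT mean, the lowest percentage among the 20 collagens with a mean of at least 100, and CARM1i replicate 3 stood well below the other CARM1i libraries, at 62.1% of their mean. Col12a1 fell by 1.44 ± 0.13 (SE; adjusted p = 5.65e-08) in KO. In CARM1i it fell by 0.55 ± 0.13 (SE; adjusted p = 0.00565), and by 0.32 (adjusted p = 0.00168) without CARM1i replicate 3.

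Col16a1, another fibril-associated chain, had the smallest log2 fold change of the 19 collagens that fell in KO. It read 10979, 11399 and 11112 in WT, 9872, 9803 and 9568 in KO and 10758, 11637 and 11586 in CARM1i, so that KO was below WT and CARM1i overlapped WT. It fell by 0.20 ± 0.03 (SE; adjusted p = 0.000122) in KO, and its log2 fold change in CARM1i was 0.02 ± 0.03 (SE; adjusted p = 0.739, or 0.00 without CARM1i replicate 3). Col9a3 and Col20a1, at means between 10 and 100, passed neither test. Col14a1 and Col22a1 had means under 10 and were not tested. Col14a1 had 0 reads in CARM1i replicates 1 and 2, which allows up to 3.04 and 2.86 normalized counts there (3 reads, counting error only).

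Of the 6 type IV chain genes, which make the network of basement membranes, 4 fell in KO and 2 in CARM1i. The shares of all tested genes that fell were 20.5% and 8.59%. Col4a1 (chr8:11198423-11312826, minus strand) and Col4a2 (chr8:11312805-11449287, plus strand), which encode the chains of the most widespread type IV trimer, start 21 bases apart on opposite strands and share 22 bases of exon, out of 7464 and 6619 exon bases. Col4a1 read 28921, 28358 and 28922 in WT, 26945, 23566 and 23442 in KO and 26694, 28091 and 24228 in CARM1i. Col4a2 read 18723, 17659.9 and 18810.0 in WT, 16382, 14201 and 14378 in KO and 17808, 19175 and 15889 in CARM1i. KO lay below WT for both genes, Col4a1 falling by 0.22 ± 0.05 (SE; adjusted p = 0.00172) and Col4a2 by 0.30 ± 0.06 (SE; adjusted p = 0.000402). In CARM1i neither passed the test, with -0.13 ± 0.05 (SE; adjusted p = 0.0934, or -0.07 without CARM1i replicate 3) for Col4a1 and -0.07 ± 0.06 (SE; adjusted p = 0.488, or 0.01 without CARM1i replicate 3) for Col4a2, the latter overlapping WT. The Col4a1 difference passed without CARM1i replicate 2 (-0.18, adjusted p = 0.0283) or without KO replicate 1 (adjusted p = 0.0419). It also passed with quantile normalization (-0.17, adjusted p = 0.0224).

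Col4a5 and Col4a6 encode chains of a second type IV network found in some basement membranes, and start 1309 bases apart on the X chromosome. Col4a5 read 3034, 3214 and 3185 in WT, 2319, 2015 and 1879 in KO and 2319, 2612 and 2099.9 in CARM1i. Col4a6 read 507, 448 and 475 in WT, 331, 339.7 and 314 in KO and 361, 347 and 329 in CARM1i. Both treated groups lay below WT for both genes and overlapped each other. Col4a5 fell by 0.61 ± 0.07 (SE; adjusted p = 1.68e-06) in KO and by 0.43 ± 0.07 (SE; adjusted p = 0.000285, or -0.35 without CARM1i replicate 3) in CARM1i, and Col4a6 by 0.54 ± 0.08 (SE; adjusted p = 2.01e-05) and 0.46 ± 0.08 (SE; adjusted p = 0.000336, or -0.43 without CARM1i replicate 3). Col4a3 and Col4a4 had means near 10 and passed neither test, and KO replicate 3 had no Col4a4 read, which allows up to 2.86 normalized counts there.

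The hexagonal network gene Col8a1 encodes a short-chain collagen of vessel walls and corneal sheets. It read 7296, 7260.5 and 7079 in WT, 6112, 5701 and 5821 in KO and 5616, 5736 and 5188 in CARM1i. Both treated groups were below every WT library: Col8a1 fell by 0.30 ± 0.04 (SE; adjusted p = 6.09e-06) in KO and by 0.39 ± 0.04 (SE; adjusted p = 1.53e-06, or -0.35 without CARM1i replicate 3) in CARM1i. The 2 treated groups overlapped, and without CARM1i replicate 2 CARM1i was lower than KO (-0.12, adjusted p = 0.0499). Its partner Col8a2 was scarce, at 12.1, 17.6 and 19.2 in WT, 5.4, 3.02 and 6.68 in KO and 27.3, 20 and 16 in CARM1i. In KO it fell by 1.55 ± 0.38 (SE; adjusted p = 0.0033), and CARM1i overlapped WT, 0.35 ± 0.38 (SE; adjusted p = 0.594, or 0.52 without CARM1i replicate 3).

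Col7a1 encodes the anchoring fibril collagen that ties basement membrane to the tissue below it. WT read 8929, 9017 and 8804, KO 8274, 8589 and 8205 and CARM1i 7457, 7435 and 8239. In CARM1i it fell by 0.21 ± 0.04 (SE; adjusted p = 0.000556, or -0.26 without CARM1i replicate 3). In KO all libraries lay below WT, but the log2 fold change of -0.09 ± 0.04 (SE; adjusted p = 0.0535) did not pass. It passed without KO replicate 2 (adjusted p = 0.0478), CARM1i replicate 2 (0.0487) or CARM1i replicate 3 (0.00925). The KO difference also passed with quantile normalization (0.0163) and with each library set to a common total (0.0234). The same held with only WT and KO in the fit (0.0123) and among genes of mean at least 50 (0.04775), all adjusted p. Col7a1 was the only collagen called lower in CARM1i than in KO, -0.12 ± 0.04 (SE; adjusted p = 0.0301). That call ended without any 1 of the 3 KO libraries or CARM1i replicate 1 or 2, at adjusted p between 0.0522 and 0.138, and the groups overlapped.

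Col23a1, a transmembrane collagen, was the only collagen that rose. It was scarce, at 50, 39.2 and 57.7 in WT, 86.4, 68.5 and 112 in KO and 57.7, 74.3 and 64.1 in CARM1i. All KO libraries lay above WT, and it rose by 0.84 ± 0.21 (SE; adjusted p = 0.00329), while in CARM1i, which overlapped WT, the value was 0.42 ± 0.21 (SE; adjusted p = 0.181, or 0.43 without CARM1i replicate 3). The remaining transmembrane and multiplexin genes, Col17a1, Col25a1 and Col18a1, had means between 10 and 100 and passed no test. The 12 class members without a row in the table (Col2a1, Col6a4, Col6a5, Col6a6, Col9a1, Col9a2, Col10a1, Col13a1, Col15a1, Col19a1, Col21a1 and Col28a1) were not analysed here, and Col26a1 had a mean under 10.

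To compare levels between classes, each count was divided by the length of the gene's exons in kb and summed over the class. On that scale the summed level of all collagens in KO was 67.6% of WT and in CARM1i 84%, the latter 88.3% without CARM1i replicate 3. The FACIT sum, nearly all Col12a1 and Col16a1, was 54% of WT in KO, beaded filament 61.5%, fibrillar 64.2%, hexagonal network 81.3%, basement membrane network 82.7% and anchoring 93.7%. In CARM1i the order differed: hexagonal network 76.7%, FACIT 80.6%, fibrillar 81.5%, beaded filament 85.7%, anchoring 86.5% and basement membrane network 92%. Without CARM1i replicate 3 the order changed again: hexagonal network 79%, anchoring 83.5%, fibrillar 85.6%, FACIT 86.9%, beaded filament 91.7% and basement membrane network 96.1%. These sums carry no test, since a class is a choice of genes and a few abundant members set its total.

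**Figure D3:**
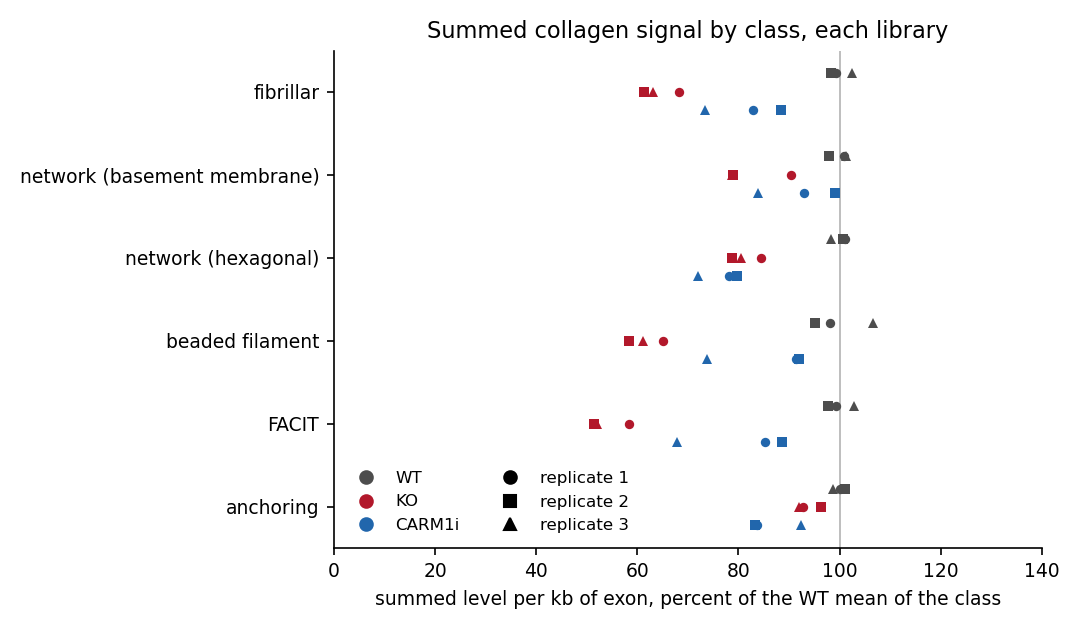
Summed level per kb of exon for each collagen class in each library, as a percent of the class's WT mean (colour, group; shape, replicate number). KO libraries are lowest for FACIT, beaded filament and fibrillar collagens, and CARM1i replicate 3 (triangle) lies below the other CARM1i libraries in all classes shown except anchoring.

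The make-up of the collagen signal shifted with these sums. Basement membrane genes held 20.9% ± 0.26 (SD, n = 3) of the length-scaled collagen signal in WT, 25.6% ± 0.6 in KO and 22.9% ± 0.35 in CARM1i. FACIT genes held 14.7% ± 0.056 in WT, 11.8% ± 0.13 in KO and 14.1% ± 0.7 in CARM1i. Col12a1 alone held 9.79% in WT, 5.36% in KO and 8.1% in CARM1i. The FACIT share thus fell through Col12a1, and the share of the other FACIT genes together did not fall. The fibrillar share was 49.7% ± 0.17 in WT and 47.3% ± 0.38 in KO. Per kb of the longest transcript it was 58.3% ± 0.18 and 56.8% ± 0.4. Without length scaling the WT and KO libraries overlapped (53.6% ± 0.21 and 53.8% ± 0.52). Per kb of exon in WT, Col1a2 was the most abundant chain (6413), followed by Col5a2 (4557), Col4a1 (3849.6), Col1a1 (3528) and Col12a1 (3353). With the longest annotated transcript as the length, Col1a2 and Col5a2 kept their places (14901 and 6597), and the order after them was Col12a1 (4435), Col4a1 (4344) and Col1a1 (3905).

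Some ratios between partner chains separated the groups and others overlapped. The ratio of Col1a1 to Col1a2 counts was 0.294, 0.292 and 0.286 in the WT libraries, 0.216, 0.204 and 0.215 in KO and 0.245, 0.253 and 0.234 in CARM1i, with no overlap between groups. The ratio of Col6a3 to Col6a1 was 0.206, 0.207 and 0.209 in WT, 0.128, 0.13 and 0.135 in KO and 0.179, 0.179 and 0.169 in CARM1i. This ratio varied little within a group and separated all 3 groups. By contrast, Col6a1 to Col6a2 in KO (5.32, 4.94 and 4.94) overlapped WT (5.29, 5.25 and 5.09), while CARM1i (5.47, 5.56 and 5.63) lay above both.

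For Col5a1 to Col5a2 and Col4a1 to Col4a2 the KO and CARM1i ratios lay on opposite sides of WT. Col5a1 to Col5a2 was 0.334, 0.329 and 0.341 in WT, 0.349, 0.363 and 0.368 in KO and 0.305, 0.298 and 0.295 in CARM1i. Col4a1 to Col4a2 was 1.54, 1.61 and 1.54 in WT, 1.64, 1.66 and 1.63 in KO and 1.5, 1.47 and 1.52 in CARM1i. Col8a1 to Col8a2 also lay above WT in KO and below it in CARM1i, but its denominator was 3.02 to 27.3 normalized counts. The ratio of Col4a6 to Col4a5, whose chains share a trimer, was added after the values were seen. It overlapped between all 3 groups, at 0.167, 0.139 and 0.149 in WT, 0.143, 0.169 and 0.167 in KO and 0.156, 0.133 and 0.157 in CARM1i. No p is given for the ratios. All but Col4a6 to Col4a5 were planned as a description by library and by whether groups overlap. The ratios also combine genes chosen with results known.

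**Figure D4:**
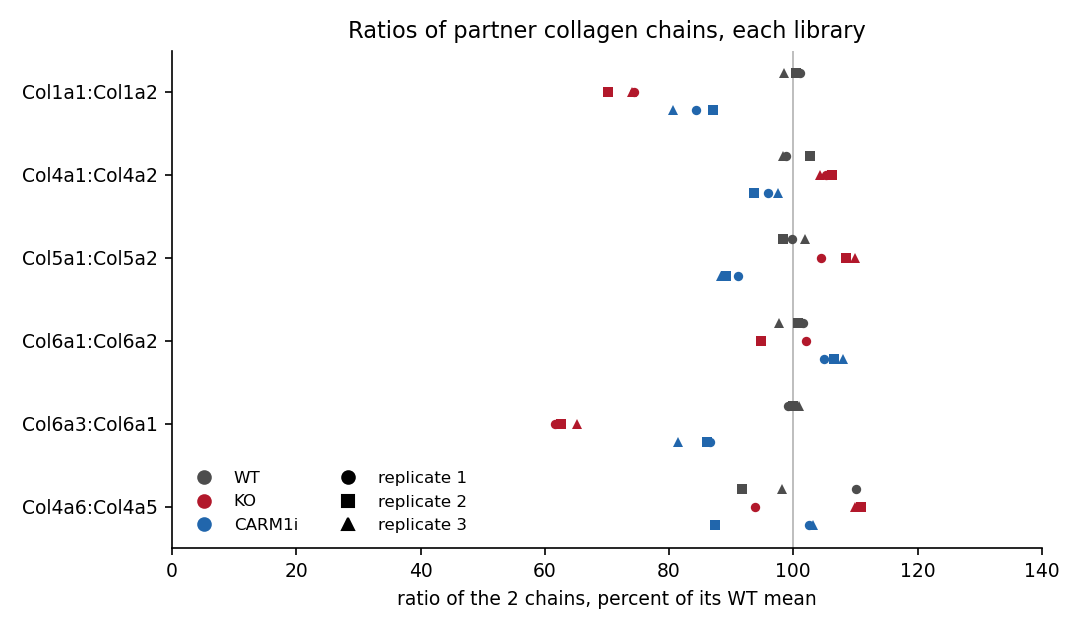
Ratio of the counts of 2 collagen chains in each library, as a percent of the ratio's WT mean (colour, group; shape, replicate number). Col1a1:Col1a2 and Col6a3:Col6a1 lie lowest in KO, with CARM1i between KO and WT, and Col5a1:Col5a2 and Col4a1:Col4a2 lie above WT in KO and below it in CARM1i.

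Promoters were compared for 25 of the 33 collagen genes, those with an entry in RefSeq's set of windows (GRCm38.p6) from 250 bases before to 50 after the start. Shown are the 250 bases before the start of Col3a1, Col11a1 and Col6a3, which fell by similar amounts in KO, with motif letters in capitals.
Col3a1, chr1:45311288-45311537, plus strand: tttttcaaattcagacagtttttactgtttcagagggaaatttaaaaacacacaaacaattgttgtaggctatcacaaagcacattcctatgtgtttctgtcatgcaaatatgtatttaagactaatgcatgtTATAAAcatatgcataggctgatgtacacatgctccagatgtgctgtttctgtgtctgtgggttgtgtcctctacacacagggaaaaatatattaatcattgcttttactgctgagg
Col11a1, chr3:114030290-114030539, plus strand: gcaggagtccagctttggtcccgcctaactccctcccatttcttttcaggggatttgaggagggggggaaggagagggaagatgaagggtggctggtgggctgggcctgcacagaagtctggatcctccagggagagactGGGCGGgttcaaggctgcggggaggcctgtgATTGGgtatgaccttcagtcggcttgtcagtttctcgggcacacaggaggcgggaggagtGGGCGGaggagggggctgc
Col6a3, chr1:90843972-90844221, minus strand: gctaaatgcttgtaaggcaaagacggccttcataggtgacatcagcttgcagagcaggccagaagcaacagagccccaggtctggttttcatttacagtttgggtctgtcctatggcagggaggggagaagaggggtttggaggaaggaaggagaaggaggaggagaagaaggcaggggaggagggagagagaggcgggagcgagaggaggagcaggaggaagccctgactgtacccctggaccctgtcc
Motifs were searched by their exact letters on both strands. The CCAAT box (CCAAT) was found in the windows of 11 of the 25 genes and in 37.4% of all 32851 windows. The GC box (GGGCGG) was found in 18 of 25 genes and 35.7% of all windows. The TATA box (TATAAA) was found in 3 of 25 genes and 13.6% of all windows, and the cAMP response element (TGACGTCA) in 1, Col24a1, and 1.79%. Col3a1 held the TATA letters, Col11a1 held the CCAAT letters, read on the other strand, and the GC box, and Col6a3 held no match to any of the 4. A match is a description of the letters only.

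Genes for making, cross-linking and sensing collagen were read from a list of 46, of which 44 were in the table and 43 were tested. In KO 16 fell and 4 rose, where 20.5% of all tested genes fell and 21.4% rose. In CARM1i 10 fell and 3 rose, where 8.59% and 10.5% did. In CARM1i against KO 10 were higher and 2 lower, where 12.1% and 11.5% were. Their median log2 fold change was -0.08 in KO and -0.08 in CARM1i, the latter -0.05 without CARM1i replicate 3, all closer to that of all tested genes than the collagens' own. Serpinh1, the collagen-specific chaperone HSP47, read 27563, 27251 and 26646 in WT, 20731, 20415 and 20602 in KO and 24240.1, 24401 and 22725 in CARM1i. The 3 groups did not overlap, and it fell by 0.40 ± 0.03 (SE; adjusted p = 1.01e-08) in KO and by 0.19 ± 0.03 (SE; adjusted p = 0.000258, or -0.16 without CARM1i replicate 3) in CARM1i. Of the prolyl hydroxylases, which stabilise the helix, P4ha1 fell by 0.16 ± 0.04 (SE; adjusted p = 0.00523) in KO and by 0.16 ± 0.04 (SE; adjusted p = 0.0121, or -0.13 without CARM1i replicate 3) in CARM1i, while P4ha3 fell by 1.34 ± 0.20 (SE; adjusted p = 2.87e-05) in KO and by 0.69 ± 0.20 (SE; adjusted p = 0.0212) in CARM1i. The CARM1i call of P4ha3 ended without CARM1i replicate 3 (-0.45, adjusted p = 0.0923), without WT replicate 3 (0.103) or without the intensity trend (0.108), and that of P4ha1 also ended without the trend (0.0905). Plod3, a lysyl hydroxylase, rose by 0.18 ± 0.03 (SE; adjusted p = 8.76e-05) in KO and by 0.13 ± 0.03 (SE; adjusted p = 0.00513, or 0.12 without CARM1i replicate 3) in CARM1i.

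Tll1, a protease that removes the C-terminal propeptide of fibrillar procollagen, read 3798, 3636 and 3320.0 in WT, 1802, 1536 and 1627 in KO and 1867, 2011 and 2183 in CARM1i. It fell by 1.12 ± 0.06 (SE; adjusted p = 1.25e-10) in KO and by 0.83 ± 0.06 (SE; adjusted p = 9.51e-08, or -0.89 without CARM1i replicate 3) in CARM1i. The cross-linking oxidases Loxl1 and Loxl3 fell by 0.40 ± 0.05 (SE; adjusted p = 3.4e-06) and 0.29 ± 0.04 (SE; adjusted p = 7.31e-06) in KO. In CARM1i they fell by 0.17 ± 0.05 (SE; adjusted p = 0.0248) and 0.21 ± 0.04 (SE; adjusted p = 0.000737, or -0.21 without CARM1i replicate 3), the Loxl1 call ending without CARM1i replicate 3 (-0.09, adjusted p = 0.0798), any 1 WT library (0.0554 to 0.0739) or the intensity trend (0.163). Of the collagen receptors, Ddr2 fell by 0.49 ± 0.04 (SE; adjusted p = 8.1e-09) and Itga2 by 0.95 ± 0.12 (SE; adjusted p = 2.87e-06) in KO. In CARM1i, Ddr2 stood at -0.10 ± 0.04 (SE; adjusted p = 0.0868, or -0.05 without CARM1i replicate 3) and Itga2 at -0.34 ± 0.12 (SE; adjusted p = 0.0517), with Ddr2 passing without CARM1i replicate 1 (0.0497) and Itga2 without KO replicate 1 (0.0482) or CARM1i replicate 3 (-0.45, adjusted p = 0.0122). With each library set to a common total both passed (0.0401 and 0.0419). Ddr2 also passed with quantile normalization (0.0220), and Itga2 in edgeR (0.0448) and among genes of mean at least 50 (0.0447), all adjusted p. Larp6, which binds the 5' stem-loop of type I collagen mRNAs, rose by 0.32 ± 0.12 (SE; adjusted p = 0.0436) in KO. That call ended without KO replicate 3 (0.18, adjusted p = 0.262) or any 1 WT library (0.0555 to 0.129). It also ended at a common total (adjusted p = 0.0559) and without the intensity trend (0.0924).

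Markers of the cell type were read beside the collagens. All 8 fibroblast markers were present, with a summed level of 262247 to 264123 in WT, 272572 to 283452 in KO and 263813 to 277287 in CARM1i. Without Fn1 the sum was 139726 to 140971 in WT, 114247 to 117977 in KO and 132544 to 139884 in CARM1i. Of the 8, Vim, Pdgfra, Pdgfrb and Twist1 fell and Thy1 and Fn1 rose in KO, and Twist1 fell and Thy1 and Fn1 rose in CARM1i. Pdgfra went from a mean of 38495 in WT to 23991 in KO, while Fn1 went from 122653 to 161679. The summed level of the smooth muscle and pericyte list (4 of 5 present, mostly Acta2) was 51122 to 52647 in WT, 44345 to 48716 in KO and 39986 to 43493 in CARM1i. Markers of other cells were low: the endothelial list (5 of 5) summed to 390 to 446 in WT and 463 to 525 in KO, the macrophage list (3 of 5, without Ptprc and Adgre1) to 123 to 153 and 162 to 234, and the epithelial list (Krt18 alone of 6, without Epcam and Cdh1) to 23.3 to 48.0 and 91.9 to 126. The cartilage list (Sox9 alone of 7) read 549 to 645 in WT, 659 to 805 in KO and 488 to 587 in CARM1i. The bone list (2 of 6, without Sp7 and Bglap) and the tendon list (Mkx alone of 3, without Scx and Tnmd) were at most 425 and 859. In KO, Sox9 rose by 0.32 ± 0.09 (SE; adjusted p = 0.00603), Runx2 of the bone list by 0.35 ± 0.10 (SE; adjusted p = 0.0101) and Mkx by 0.45 ± 0.08 (SE; adjusted p = 9.87e-05), and none of them passed the test in CARM1i. Egfl7 of the endothelial, Cspg4 of the pericyte and Cd68 of the macrophage list and Krt18 also rose in KO, Egfl7 also rose in CARM1i, and Acta2 fell in both treated groups. The part of these markers in the collagen differences was not tested.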

How the data were processed

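The members and gene lists were chosen with earlier results of these data known. RNA of 9 MEF libraries was prepared with a stranded mRNA kit, per the labels. The submitters' processing notes list build mm10 and the tools DESeq 1.18.0, HTSeq 0.6.0 and TopHat2 2.0.10; which annotation and strand option the counting used was not given, so reads of overlapping antisense genes could not be told apart. The deposited values are read counts divided by size factors, a signal made by the authors; 100% were whole reads (tolerance 1e-06) once multiplied back. Gene identifiers were matched to GENCODE M21 without version (16413 of 16428). Values were fitted as log2(value + 1) in limma 3.58.1 (R 4.3.3) with an intensity trend, all 9 libraries, 3 groups, genes of mean at least 10, and Benjamini-Hochberg adjustment over all 14560. The script was tested on simulated data. The recovered reads were also tested in edgeR 4.0.16 and in DESeq2 1.42.0. Other alternatives were pseudocounts, filters, scalings, lengths, a replicate block, a smallest fold and dropping each library. Collagens of mean at least 100 are named with every library's value, and those of mean 10 to 100 where they passed a test. Of the processing, cross-linking and receptor genes, the 8 with the smallest adjusted p over the comparisons are named, plus Serpinh1, P4ha1, Larp6 and Ddr2. No replicate pair agreed within sampling noise (chi-square per gene 2.47 to 8.47).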

Additional observations from a re-analysis of the deposited data

How the results depend on the processing

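No called collagen change turned direction under any of the 21 alternatives. With a minimum change of 1.5-fold, 10 collagens were lower in KO and 1, Col11a1, in CARM1i, and 5 were higher and 0 lower in CARM1i than in KO. Without CARM1i replicate 3 the log2 fold change of Col11a1 in CARM1i was -0.42, short of 1.5-fold. No share over all genes is given at that minimum. The same minimum left 0 higher and 6 lower processing, cross-linking and receptor genes in KO, 1 and 2 in CARM1i, and 2 and 0 for CARM1i against KO. Without the intensity trend 8 collagens were lower in CARM1i. Of the 13 collagen calls of CARM1i against KO, 9 held and 0 of these were lower. Those of Col11a1, Col4a2, Col6a2 and Col7a1 ended. Of the processing genes 2 were higher in KO, 1 in CARM1i, and 5 higher and 1 lower in CARM1i than in KO. Over all genes that setting called 1797 in CARM1i, against 2784, and 2490 for CARM1i against KO, against 3436. Col1a2, Col5a2, Col11a1, Col6a1, Col6a2 and Col12a1 lost their CARM1i call in it; the cause was not tested. Leaving out each library in turn gave 19 to 20 lower collagens in KO, 13 to 15 in CARM1i, 11 to 16 higher and 0 to 1 lower in CARM1i than in KO. For the processing genes it gave 2 to 6 higher and 12 to 22 lower in KO, 2 to 3 and 8 to 12 in CARM1i, and 6 to 12 and 1 to 3 for CARM1i against KO. The lowest of these came without WT replicate 3 (2 higher in KO), without KO replicate 2 or CARM1i replicate 1 (6 higher than KO), and without KO replicate 1 or CARM1i replicate 1 or 2 (1 lower than KO). Shares over all genes are not given for these counts, except those of the CARM1i comparisons without CARM1i replicate 3. On the recovered reads, DESeq2 lost the CARM1i call of Col6a1 (adjusted p = 0.137). Class shares depend on the length used: the basement membrane share in KO was 25.6% per kb of exon, 19.4% per kb of the longest transcript and 20.4% unscaled, above WT in each (20.9%, 15.9% and 16.1%).

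With the replicate number as a block, 1 collagen was higher and 19 were lower in KO, 0 and 14 in CARM1i, and 12 and 1 for CARM1i against KO; the processing genes gave 3 and 17, 2 and 10, and 9 and 2. No share over all genes is given with the block. The Larp6 call in KO ended with the block (adjusted p = 0.0518). Deviations of same-numbered libraries correlated at -0.087 to 0.027, and 1 of 9 pairs matched best with its own number, so the numbers were not taken to pair samples.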

Other observations

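Ratios of chains that do not share a trimer were looked at after the values were seen. The ratio of Col12a1 to Col1a2 counts was 0.652, 0.627 and 0.642 in WT, 0.370, 0.307 and 0.318 in KO, and 0.579, 0.548 and 0.398 in CARM1i, the last value being replicate 3. The ratio of Col3a1 to Col1a2 was 0.0782, 0.0790 and 0.0680 in WT, 0.0388, 0.0468 and 0.0449 in KO, and 0.0654, 0.0604 and 0.0586 in CARM1i. Both ratios separated KO from WT in all libraries.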
